A study of Mus musculus with 20 samples.

Results

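Contact sites between the endoplasmic reticulum (ER) and mitochondria were examined through 9 genes whose proteins sit at or near them: Vapa, Vapb, Rmdn3, Pdzd8, Pacs2, Bcap31, Vdac1, Vdac2 and Vdac3. The genes were listed by name, since MFN2 also ties mitochondria to the ER. All 9 were among the 28632 genes counted and tested, with no filter on low counts.

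At a contact site the ER membrane runs close to the outer membrane of a mitochondrion, and proteins on both sides hold the membranes together while lipids and calcium pass between them. VAPA and VAPB are ER anchors that bind RMDN3 (also called PTPIP51) on the mitochondrion, and the VDACs are the outer-membrane channels through which metabolites and calcium enter. In β cells calcium that reaches mitochondria raises the ATP supply on which insulin release depends.

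The study asked how loss of the mitofusins MFN1 and MFN2 from β cells changes islets, and sequenced bulk RNA of pancreatic islets from 12-week-old mice of both sexes on the C57BL/6N background. Islets were cultured for a day before RNA was collected. The Ctrl group (n = 6, 3 females and 3 males) is labelled wild type, and the study's methods pool as controls mice that carry only the Cre with mice that carry only floxed alleles. The mice of the β-Mfn1KO group (n = 4, 3 females and 1 male) had a floxed exon of Mfn1 deleted by Ins1-Cre, and those of β-Mfn2KO (n = 5, 2 females and 3 males) a floxed exon of Mfn2. Both deletions were combined in β-Mfn1/2DKO (n = 5, 2 females and 3 males). Ins1-Cre acts in β cells, so the other islet cells in each library still carried intact Mfn1 and Mfn2.

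Depth went with genotype. Total counts ran from 12400687 to 20329064 per library in Ctrl and from 15745680 to 16685381 in β-Mfn1KO. In β-Mfn2KO replicates 1 to 3 held between 15110046 and 18919122, and replicates 4 and 5 held 55962873 and 59533407. The β-Mfn1/2DKO libraries held 65533388 to 122947313, more than any other library. Replicates 4 and 5 of β-Mfn2KO and all 5 β-Mfn1/2DKO libraries are called deep here. The genotype of β-Mfn1/2DKO and the depth of its libraries cannot be told apart against Ctrl or β-Mfn1KO, while against β-Mfn2KO a comparison among deep libraries alone is given with Pdzd8, Pacs2 and Vdac3. It leaves out the shallow libraries but does not match depth, since both deep β-Mfn2KO libraries held fewer counts than any β-Mfn1/2DKO library.

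The targeted genes were read first, in counts brought to the mean library size with TMM factors. Mfn1 was at 1518 to 1807 in Ctrl (median 1693), at 770.4, 621.4, 630.8 and 673.6 in β-Mfn1KO, and at 690.3, 690.5, 686.9, 855.9 and 1062 in β-Mfn1/2DKO. Every β-Mfn1KO and β-Mfn1/2DKO library lay under the lowest Ctrl library. Mfn2 was at 3089 to 4373 in Ctrl (median 3252), at 1532, 1586, 1688, 1474 and 1608 in β-Mfn2KO, and at 2022, 2082, 2062, 2131 and 2124 in β-Mfn1/2DKO. Here too every library of the groups that lack the gene in β cells lay under the lowest Ctrl library, so the labels and the counts of both genes fitted each other. Between these groups Mfn2 was higher in β-Mfn1/2DKO than in β-Mfn2KO, by 0.40 on the log2 scale (adjusted p = 0.001063 in edgeR) with no overlap. The source of that difference was not tested. Mfn1 in β-Mfn2KO was at 1683 to 1807, beside 1518 to 1807 in Ctrl. Mfn2 in β-Mfn1KO was at 4399, 3869, 4607 and 4535, with a log2 fold change of 0.31 against Ctrl that missed the threshold (adjusted p = 0.433).

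Marker genes of islet cells were present in every library, with Ins2, Gcg and Ppy as the most abundant genes of the β, α, and δ and PP lists. The summed level of 8 β cell markers was 144155 to 231776 CPM in Ctrl, 156544 to 198932 in β-Mfn1KO, 141897 to 188301 in β-Mfn2KO, and 86621, 85265, 79339, 76734 and 63675 in replicates 1 to 5 of β-Mfn1/2DKO. All 8 were called lower in β-Mfn1/2DKO against Ctrl (median log2 fold change −1.20), and Ins2 fell by 1.09 on the log2 scale with an adjusted p of 4.451e-06 and no overlap between the groups. In β-Mfn2KO and in β-Mfn1KO 1 of the 8 was called lower, where 0.0559% and 0.0279% of all genes were called. The 8 include Ins1, and the study describes its Ins1-Cre as a knockin strain. The part of that allele in the marker calls was not tested. In counts of whole islets, fewer cells of a type and less RNA per cell cannot be told apart.

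Markers of exocrine tissue set some libraries apart. The summed level of 10 acinar markers, of which Ctrb1 was the most abundant, was 286 to 1843 CPM in Ctrl, 102.1 to 606.9 in β-Mfn1KO, and 531.8, 1730, 468.6, 6967 and 622.8 in replicates 1 to 5 of β-Mfn2KO. In β-Mfn1/2DKO it was 451.6, 745.1, 441.9, 16475 and 42455, so replicates 4 and 5 lay far above all other libraries and replicates 1 to 3 within the Ctrl range. All 10 acinar markers were called higher in β-Mfn1/2DKO against Ctrl (median log2 fold change 3.74), and 0 of 10 in edgeR without replicates 4 and 5. The replicate number as a block left 0 of 10 called (median 1.88), and sex as a covariate 2 of 10 (median 2.80). Depth (deep or not) as a covariate left 0 of 10. With all libraries and no covariate 4 of 4 endothelial markers (Kdr the most abundant, summed level 98.18 to 148.3 CPM in Ctrl and 145.8 to 238.7 in β-Mfn1/2DKO) and 2 of 3 duct markers (Krt7 the most abundant, summed level 511.4 to 579.2 and 720 to 811 CPM) were also called higher. So was 1 of 3 stromal markers (summed level 13.13 to 226.9 and 34.95 to 62.36 CPM), but not the most abundant of them, Col1a1 (−0.45, adjusted p = 0.774). Without β-Mfn1/2DKO replicates 4 and 5, 3 of 4 endothelial, 1 of 3 duct and 0 of 3 stromal markers were called higher. The replicate number as a block, or sex as a covariate, also left 1 duct marker called. None of the 3 α cell markers (most abundant and summed level: Gcg, 15138 to 49179 and 30900 to 51987 CPM), the 3 δ and PP cell markers (Ppy, 4860 to 7401 and 4201 to 5481 CPM) or the 4 leukocyte markers (Lyz2, 27.03 to 472.9 and 29.13 to 124.4 CPM) was called in β-Mfn1/2DKO against Ctrl with all libraries and no covariate. Total-count scaling called 2 α cell markers higher, and sex as a covariate 1. The replicate number as a block called 1 δ and PP cell marker lower. The highest leukocyte and stromal sums of all 20 libraries were in β-Mfn2KO replicate 5 (677.4 and 258.3 CPM) and Ctrl replicate 6 (472.9 and 226.9 CPM). No marker was at 0 in all libraries, and apart from acinar tissue, which was varied in the refits below, the part of these cell types in the results for the contact site genes was not tested.

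Counts were tested with the quasi-likelihood test of edgeR in 1 fit over all 20 libraries, with Benjamini-Hochberg adjustment over 28632 genes. A gene is called at an adjusted p under 0.05. The comparisons with Ctrl share the same 6 Ctrl libraries, so they are not independent of each other.

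In β-Mfn1/2DKO against Ctrl 3 of the 9 contact site genes were called, where 16.5% of all genes were. Vdac1, Vdac3 and Pacs2 were the 3, all called higher (9.59% of all genes were called higher), and 0 of 9 were called lower (6.86% of all genes), with 7 of the 9 at an unadjusted p under 0.05 in edgeR (7974 of all 28632 genes). DESeq2 called the same 3 higher and 1 lower (Bcap31), where it called 30.4% of the 19075 genes it tested. Only Vdac3 also had a fold change over 1.5, where 5.21% of all genes passed both. Among the 4226 genes at least as abundant as Pacs2, the least abundant of the 9, the share called was 39.5%, so the share among contact site genes was near that of genes counted as deeply. Their median log2 fold change was 0.13, beside 0.06 over all genes and −0.02 among those 4226.

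Loss of MFN2 was compared with MFN1 present (β-Mfn2KO against Ctrl) and absent (β-Mfn1/2DKO against β-Mfn1KO, below). In β-Mfn2KO against Ctrl edgeR called 0 of the 9, where 0.0559% of all genes were called, and DESeq2 also called 0. At an unadjusted p under 0.05 there was 1, Rmdn3 (1208 of all 28632 genes). The log2 fold changes ran from −0.13 (Rmdn3) to 0.12 (Vdac1) with a median of 0.01, beside 0.02 over all genes.

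In β-Mfn1KO against Ctrl edgeR called 0 of the 9 (0.0279% of all genes), DESeq2 called 0, and 1 had an unadjusted p under 0.05, Vdac3 (2130 of all 28632 genes). The log2 fold changes ran from −0.07 (Pacs2) to 0.20 (Vdac3) with a median of 0.02.

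Set against the single knockouts, β-Mfn1/2DKO had 2 of 9 called against β-Mfn2KO (13.0% of all genes, 33.1% of the 4226 abundant genes), Vdac3 and Pacs2, both higher, and DESeq2 called 4 of 9 (26.5% of the genes it tested), with Pdzd8 higher and Bcap31 lower besides. Against β-Mfn1KO 5 of 9 were called (17.4% of all genes, 42.0% of the 4226 abundant genes), with Vdac1, Vdac3, Pacs2 and Pdzd8 higher and Bcap31 lower. Between β-Mfn2KO and β-Mfn1KO edgeR called 0 of 9 (0.335% of all genes) and DESeq2 0 of 9 (6.14% of the 13599 genes it tested). In edgeR 1 of the 9 had an unadjusted p under 0.05 (Rmdn3, log2 fold change −0.15), as had 3733 of all 28632 genes.

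**Figure D1:**
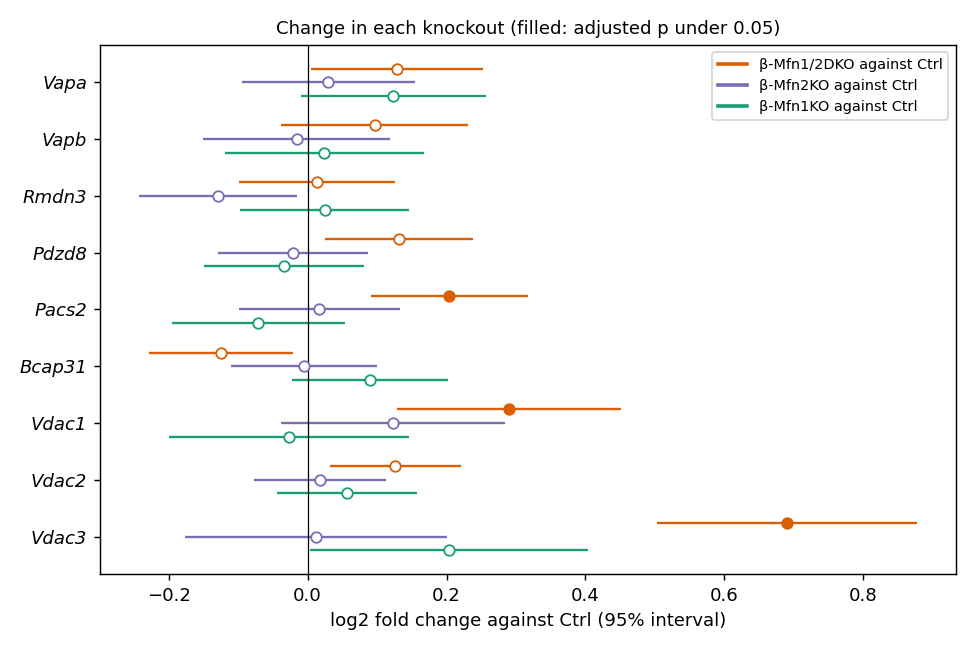
Log2 fold change of each contact site gene in each knockout against Ctrl, with a 95% interval derived from the F statistic of edgeR. Filled points have an adjusted p under 0.05. The filled points are Pacs2 (0.20), Vdac1 (0.29) and Vdac3 (0.69) in β-Mfn1/2DKO, and with other scalings the sign in β-Mfn1/2DKO turns for Vapb (−0.26 with the authors' factors), Rmdn3 (−0.02) and Bcap31 (0.01 with total counts).

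With depth class (deep or not) as a covariate, 0 of the 9 were called in β-Mfn1/2DKO against Ctrl, where the share of all genes called also fell to 2.54%. Only β-Mfn2KO holds libraries of both depths, so the effect of depth in that fit rests on its 5 libraries.

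**Figure D2:**
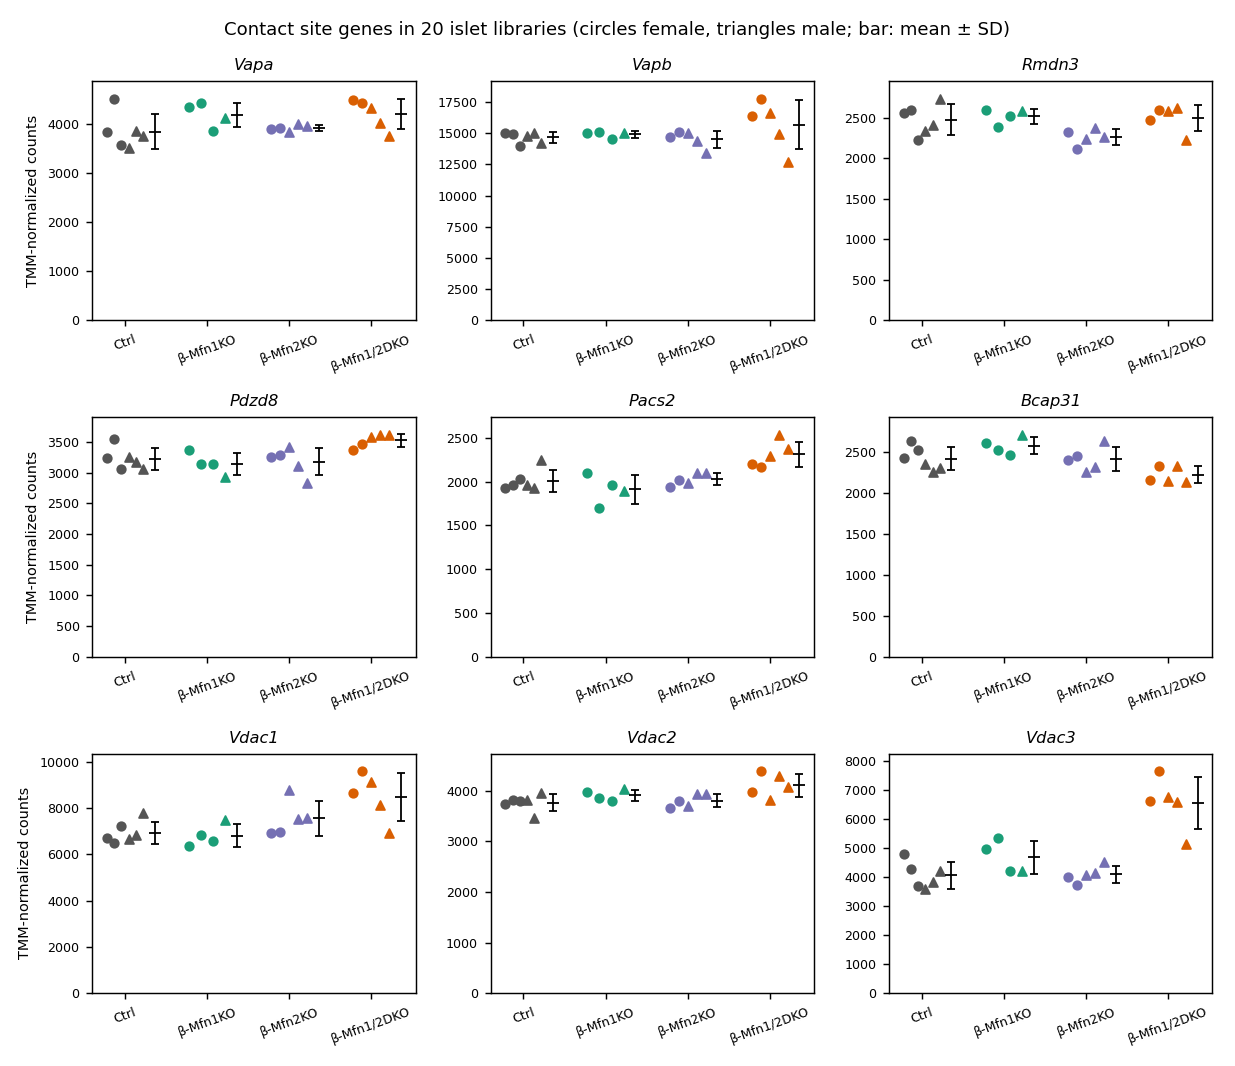
TMM-normalized counts of the 9 genes in each of the 20 libraries, by group, with the group mean and SD beside the points. Vdac3 in β-Mfn1/2DKO (5141 to 7644) lies above every Ctrl library (3575 to 4806).

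The ER anchors come first. Vapa encodes VAPA, one of the paired ER proteins that hold lipid-transfer proteins and RMDN3 at the membrane (ENSMUSG00000024091, GRCm38 chr17:65578327-65613555, minus strand). Its counts were 3522 to 4522 in Ctrl (median 3810), and 4487, 4434, 4335, 4028 and 3764 in β-Mfn1/2DKO. The groups overlapped, with β-Mfn1/2DKO replicate 5 under the Ctrl median and Ctrl replicate 2 above all 5. On the log2 scale the change was 0.13 (SE 0.06, adjusted p = 0.164), with 4 of 5 libraries above the Ctrl median. Without Ctrl replicate 2 it was 0.18 and was called (adjusted p = 0.0229), as it was without the acinar-rich β-Mfn1/2DKO replicates 4 and 5 (0.22, adjusted p = 0.0221). In β-Mfn1KO Vapa was at 4349, 4427, 3874 and 4128, all above the other 5 Ctrl libraries and under Ctrl replicate 2.

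Vapb encodes VAPB, the other VAP of the ER (ENSMUSG00000054455, chr2:173737511-173784336, plus strand). Its counts were 14010 to 15032 in Ctrl (median 14878), 15001, 15109, 14526 and 15041 in β-Mfn1KO, and 14675, 15109, 14995, 14349 and 13434 in β-Mfn2KO. In β-Mfn1/2DKO they were 16410, 17757, 16620, 14910 and 12731. Replicates 1 to 3 of β-Mfn1/2DKO were above every other library, replicate 4 was within the Ctrl range and replicate 5 was the lowest of all 20. The log2 fold change in β-Mfn1/2DKO was 0.10 (SE 0.06, adjusted p = 0.377), but −0.26 (adjusted p = 0.0182) with the authors' normalization factors. Without β-Mfn1/2DKO replicate 5 the TMM value was 0.16 and was called (adjusted p = 0.0416), and without replicates 4 and 5 together it was 0.23 (adjusted p = 0.00636). Against β-Mfn2KO it was 0.11 (adjusted p = 0.320) but −0.24 (adjusted p = 0.0480) with the authors' factors, and 0.18 without β-Mfn1/2DKO replicate 5 (adjusted p = 0.0368). Against β-Mfn1KO it was 0.07, and −0.21 with the authors' factors, called with neither. It was called higher there with total-count scaling and without β-Mfn1/2DKO replicates 4 and 5 together.

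The authors' normalized table divides each count by a factor that differs between genes within a library, by a step that is not stated. Relative to the median factor of its library, the factor of Vapb was 0.877 to 0.979 in Ctrl, 0.935 to 1.03 in β-Mfn1KO, and 0.859 to 1.004 in β-Mfn2KO. In β-Mfn1/2DKO it was 1.23, 1.16, 1.12, 1.15 and 1.19 in replicates 1 to 5, above all other libraries. The mean log2 factor of Vapb was 0.32 higher in β-Mfn1/2DKO than in Ctrl, a difference exceeded in size by 1.46% of the 12274 genes whose mean reached 100 normalized counts. For the other 8 genes the same difference lay between −0.03 and 0.03. The direction of Vapb in β-Mfn1/2DKO therefore depends on this factor, and what the factor corrects was not tested.

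**Figure D3:**
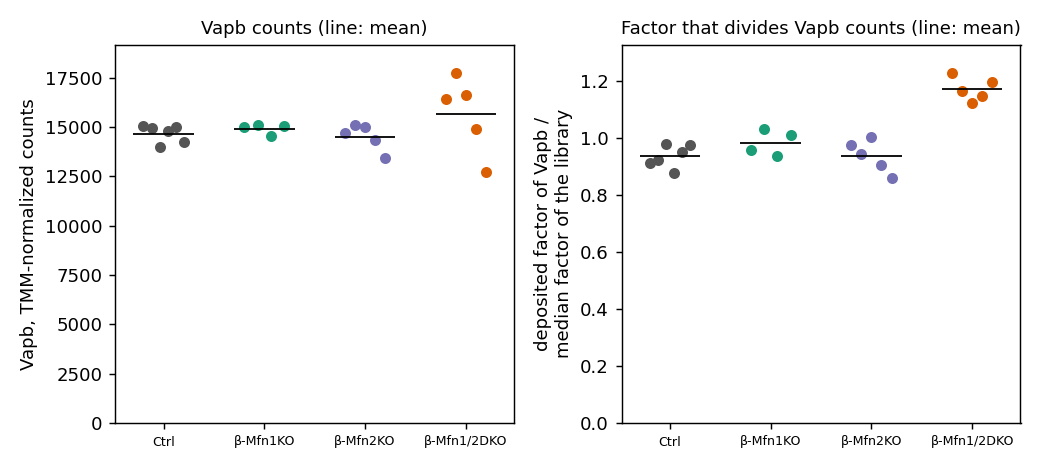
Left, TMM-normalized counts of Vapb in each library; right, the factor by which the authors' table divides Vapb, relative to the median factor of the library, with group means as lines. The factor is 1.12 to 1.23 in β-Mfn1/2DKO and 0.877 to 0.979 in Ctrl.

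Rmdn3 encodes the outer-membrane partner of the VAPs (ENSMUSG00000070730, chr2:119137001-119157034, minus strand). Its counts were 2222 to 2733 in Ctrl (median 2480), and 2322, 2120, 2240, 2372 and 2260 in β-Mfn2KO. All 5 β-Mfn2KO libraries lay under the Ctrl median, 4 of them within the Ctrl range and replicate 2 below it. Its log2 fold change of −0.13 (SE 0.05) passed at an unadjusted p of 0.0276 in edgeR but not after adjustment (0.925). In β-Mfn1/2DKO Rmdn3 was at 2471, 2594, 2581, 2618 and 2226, on both sides of the Ctrl median. The log2 ratio to Ctrl was 0.01 (SE 0.05, adjusted p = 0.906), and its sign turned with DESeq2 size factors (−0.02). Against β-Mfn2KO it was 0.14 (SE 0.06, adjusted p = 0.104), called without β-Mfn1/2DKO replicate 5 (0.18, adjusted p = 0.0335).

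Pdzd8 encodes an ER protein that moves lipids at contact sites (ENSMUSG00000074746, chr19:59297178-59345780, minus strand). Its counts were 3051 to 3547 in Ctrl (median 3203), 3375, 3134, 3139 and 2930 in β-Mfn1KO, and 3367, 3462, 3587, 3611 and 3609 in β-Mfn1/2DKO. Each of the 5 was above the Ctrl median and 3 of them above the highest Ctrl library, replicate 2. Against Ctrl its log2 fold change was 0.13 (SE 0.05), which was not called (adjusted p = 0.0886). Without Ctrl replicate 2, β-Mfn2KO replicate 3 or 5, or β-Mfn1/2DKO replicate 1 or 2 it was 0.16 to 0.17 and was called, with adjusted p from 0.0229 to 0.0446. Against β-Mfn1KO the log2 fold change was 0.17 (SE 0.06), called by a small margin (adjusted p = 0.0489). That call was lost, with values of 0.13 to 0.17 and adjusted p of 0.0508 to 0.165, on leaving out any 1 of 11 libraries, namely Ctrl replicates 1, 3, 4 and 5, β-Mfn1KO replicates 2, 3 and 4, β-Mfn2KO replicates 1, 2 and 4, and β-Mfn1/2DKO replicate 5. It was also lost in DESeq2 (0.14, adjusted p = 0.0534), with DESeq2 size factors (0.14, adjusted p = 0.108), the authors' factors (0.12, adjusted p = 0.179), acinar score (0.15, adjusted p = 0.188) and drawn-down counts (0.15, adjusted p = 0.159), and without β-Mfn1/2DKO replicates 4 and 5 together (0.17, adjusted p = 0.104). With depth class it was 0.32 and Pdzd8 was the only one of the 9 still called (adjusted p = 0.0425), where 4.31% of all genes were called.

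In β-Mfn2KO Pdzd8 was at 3247, 3284, 3411, 3111 and 2833, with the deep replicates 4 and 5 the lowest of the 5. β-Mfn1/2DKO against β-Mfn2KO gave a log2 ratio of 0.15 (SE 0.05, adjusted p = 0.0649). With deep libraries alone it was 0.29 (SE 0.06, adjusted p = 0.0214), and all 5 β-Mfn1/2DKO libraries were above both β-Mfn2KO libraries. It was also called without Ctrl replicate 2 (0.15, adjusted p = 0.0491), β-Mfn2KO replicate 3 (0.20, adjusted p = 0.0163), or β-Mfn1/2DKO replicate 1 (0.19, adjusted p = 0.0313) or 2 (0.18, adjusted p = 0.0394), in DESeq2 (0.13, adjusted p = 0.0430), with filterByExpr (0.14, adjusted p = 0.0429) and with depth class (0.25, adjusted p = 0.0274).

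Pacs2 encodes a sorting protein that helps keep ER and mitochondria apposed (ENSMUSG00000021143, chr12:113014508-113074401, plus strand). Its counts were 1926 to 2251 in Ctrl (median 1961), 2099, 1699, 1957 and 1896 in β-Mfn1KO, and 1944, 2019, 1987, 2100 and 2105 in β-Mfn2KO. In β-Mfn1/2DKO they were 2207, 2172, 2293, 2533 and 2369. These 5 libraries were above every library of the single knockouts and above 5 of 6 Ctrl libraries, and replicates 1 and 2 were below Ctrl replicate 6. The log2 fold change against Ctrl was 0.20 (SE 0.05, adjusted p = 0.0115, above the Ctrl median in 5 of 5 libraries). Without the acinar-rich replicates 4 and 5 of β-Mfn1/2DKO it was 0.17 and was no longer called (adjusted p = 0.0887), nor was it with the authors' factors (0.18, adjusted p = 0.106), with counts drawn down to the smallest total (0.17, adjusted p = 0.104) or with depth class (0.12, adjusted p = 0.658).

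Against β-Mfn2KO the log2 fold change of Pacs2 was 0.19 (SE 0.06, adjusted p = 0.0309). The call ended without β-Mfn2KO replicate 1 (0.17, adjusted p = 0.0798) or 2 (0.19, adjusted p = 0.0647), and without β-Mfn1/2DKO replicate 4 (0.17, adjusted p = 0.0708) or 5 (0.18, adjusted p = 0.0638). It ended too with DESeq2 size factors (0.16, adjusted p = 0.0616), the authors' factors (0.12, adjusted p = 0.385), acinar score (0.17, adjusted p = 0.0505), depth class (0.14, adjusted p = 0.337), drawn-down counts (0.19, adjusted p = 0.0901) and without β-Mfn1/2DKO replicates 4 and 5 together (0.15, adjusted p = 0.181). With deep libraries alone it was 0.19 (adjusted p = 0.143). Against β-Mfn1KO it was 0.28 (SE 0.06, adjusted p = 0.00256), and no longer called with the authors' factors (0.21, adjusted p = 0.0940), depth class (0.19, adjusted p = 0.382) or drawn-down counts (0.21, adjusted p = 0.0538).

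Bcap31 encodes BAP31, an ER membrane protein that also meets mitochondrial proteins at contacts (ENSMUSG00000002015, chrX:73686178-73716175, minus strand). It was at 2259 to 2636 in Ctrl (median 2394), at 2604, 2527, 2461 and 2706 in β-Mfn1KO, and at 2158, 2330, 2141, 2333 and 2130 in β-Mfn1/2DKO. Each of these last 5 was under the Ctrl median and under every β-Mfn1KO library, and 2 were within the Ctrl range. Against Ctrl the log2 fold change was −0.12 in edgeR (SE 0.05, adjusted p = 0.0977) and −0.16 in DESeq2, which called it (adjusted p = 0.00859), while total-count scaling gave 0.01. It was also called in edgeR with DESeq2 size factors (adjusted p = 0.0323) and with filterByExpr (−0.14, adjusted p = 0.0214). Total-count scaling raised the median of all genes by 0.14 in this comparison, and relative to that shift Bcap31 was at −0.12. Against β-Mfn2KO it was −0.12 (SE 0.05, adjusted p = 0.145), and called lower in DESeq2 (−0.15, adjusted p = 0.0203) and with filterByExpr (−0.13, adjusted p = 0.0415). Against β-Mfn1KO it was called lower (−0.21, SE 0.06, adjusted p = 0.00803), but not with total-count scaling (−0.05, adjusted p = 0.662, or −0.21 relative to a shift of 0.16) or with depth class (−0.27, adjusted p = 0.113).

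The channels follow. Vdac1 encodes the main calcium and metabolite channel of the outer membrane (ENSMUSG00000020402, chr11:52360860-52389397, plus strand). Its counts were 6479 to 7773 in Ctrl (median 6758), 6342, 6836, 6594 and 7496 in β-Mfn1KO, and 6914, 6969, 8803, 7545 and 7572 in β-Mfn2KO. In β-Mfn1/2DKO they were 8643, 9597, 9139, 8149 and 6912. Of these, 4 of 5 were above the highest Ctrl library, replicate 5 was within the Ctrl range, and β-Mfn2KO replicate 3 was above 3 of the 5. The log2 fold change against Ctrl was 0.29 (SE 0.08, adjusted p = 0.0113, above the Ctrl median in 5 of 5 libraries), and with depth class it was 0.29 with an adjusted p of 0.365. Against β-Mfn1KO it was 0.32 (SE 0.09, adjusted p = 0.0124), and it was 0.28 and no longer called without β-Mfn1KO replicate 1 (adjusted p = 0.0516). Against β-Mfn2KO it was 0.17 (SE 0.08, adjusted p = 0.198), and it was called without β-Mfn2KO replicate 3 (0.25, adjusted p = 0.0456) or β-Mfn1/2DKO replicate 5 (0.23, adjusted p = 0.0428). It was also called higher there without β-Mfn1/2DKO replicates 4 and 5 together.

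Vdac2 encodes a channel of the same family that also holds BAK at the outer membrane (ENSMUSG00000021771, chr14:21825238-21845879, plus strand). It was at 3459 to 3963 in Ctrl (median 3807), and at 3977, 4390, 3818, 4296 and 4076 in β-Mfn1/2DKO. The 5 libraries were above the Ctrl median, and 4 of them above the highest Ctrl library. With a log2 fold change of 0.13 (SE 0.05) it was not called (adjusted p = 0.0606). It was called, at 0.14 to 0.18 with adjusted p from 0.0114 to 0.0413, without Ctrl replicate 6, β-Mfn2KO replicate 3 or 5, or β-Mfn1/2DKO replicate 1 or 3. It was also called with filterByExpr and with total-count scaling (0.26, or 0.13 relative to a shift of 0.14). Against β-Mfn2KO it was 0.11 (SE 0.05, adjusted p = 0.145), called without β-Mfn1/2DKO replicate 3 (0.15, adjusted p = 0.0406). An end of Vdac2 overlaps Comtd1 on the opposite strand (25 exon bases), whose mean count was 10.7% of that of Vdac2.

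Vdac3 encodes the third channel of the family (ENSMUSG00000008892, chr8:22577075-22593813, minus strand). Its counts were 3575 to 4806 in Ctrl (median 4015), 4969, 5334, 4215 and 4197 in β-Mfn1KO, and 4006, 3728, 4068, 4150 and 4519 in β-Mfn2KO. In β-Mfn1/2DKO they were 6637, 7644, 6764, 6572 and 5141. All 5 were above every Ctrl and β-Mfn2KO library, and replicate 5 was below β-Mfn1KO replicate 2. Against Ctrl Vdac3 rose by 0.69 on the log2 scale (SE 0.09, adjusted p = 1.01e-05), a fold of 1.61. It was 0.81 (adjusted p = 1.42e-06) without the acinar-rich replicates 4 and 5 of β-Mfn1/2DKO, and 0.55 (adjusted p = 0.0771) with depth class.

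The shallow libraries were then left out for Vdac3. The deep β-Mfn2KO libraries were at 4150 and 4519, and the β-Mfn1/2DKO library nearest to them in depth, replicate 5, was at 5141. With deep libraries alone (n = 5 β-Mfn1/2DKO and n = 2 β-Mfn2KO) the log2 ratio was 0.64 (SE 0.14, adjusted p = 0.0307 in edgeR), beside 0.68 (SE 0.09, adjusted p = 3.661e-05) with all libraries. Vdac3 was thus called higher without the shallow libraries too, though every β-Mfn1/2DKO library was still the deeper. The 2 β-Mfn2KO libraries are both male, replicate 4 is rich in acinar markers (6967 CPM) and replicate 5 in leukocyte and stromal markers. β-Mfn1/2DKO replicate 5 held the highest acinar sum of all 20 libraries (42455 CPM) and the lowest β marker sum (63675 CPM). The part of these differences in Vdac3 was not tested.

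Against β-Mfn1KO the log2 fold change of Vdac3 was 0.49 (SE 0.10, adjusted p = 0.00135), and with depth class 0.35 (adjusted p = 0.312). The change of Vdac3 in β-Mfn1KO against Ctrl was 0.20 (SE 0.10), with an unadjusted p of 0.0462 in edgeR and an adjusted p of 0.669. In β-Mfn2KO against Ctrl it was 0.01 (SE 0.09, adjusted p = 1).

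Whether loss of Mfn1 acts differently without Mfn2 was tested as the difference of 2 log2 fold changes in the same fit, β-Mfn1/2DKO against β-Mfn2KO minus β-Mfn1KO against Ctrl. The test was chosen after the data had been seen. For Vdac3 the difference was 0.47 (adjusted p = 0.0394 over all genes, of which 1694 were called). For the other 8 genes it was not called, with Pacs2 nearest (0.26, adjusted p = 0.0692). The call for Vdac3 ended on leaving out any 1 of 9 libraries, with differences of 0.42 to 0.48 and adjusted p of 0.0518 to 0.0898: Ctrl replicates 1, 2 and 6, β-Mfn1KO replicates 3 and 4, β-Mfn2KO replicates 1, 2 and 4, and β-Mfn1/2DKO replicate 2. It also ended with depth class (0.39, adjusted p = 0.218) and with counts drawn down to the smallest total (0.42, adjusted p = 0.0769).

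Counts of Vdac3 may hold reads of other genes, since 11.4% of the 75-base stretches of its transcripts recur in 2 other genes. The more abundant of them, the pseudogene Vdac3-ps1, had a mean count of 15.9.

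The balance of the channels was read per length, as CPM per kilobase of merged exon. In Ctrl Vdac1 made up 63.2 ± 2.06% of the sum of the 3 (SD, n = 6), Vdac2 18.9 ± 0.827% and Vdac3 17.9 ± 1.91%. The share of Vdac3 was 16.05 to 20.99% in Ctrl, 21.98, 22.36, 19 and 17.28% in β-Mfn1KO, and 17.8, 16.6, 15.4, 17.1 and 18.3% in β-Mfn2KO. In β-Mfn1/2DKO it was 22.9, 23.5, 22.5, 23.2 and 21.4%, above every Ctrl and β-Mfn2KO library, while β-Mfn1KO replicates 1 and 2 reached the same range. The shares of both others were lower in β-Mfn1/2DKO than in Ctrl, at 16.4 ± 1.89% for Vdac2 and 60.9 ± 1.499% for Vdac1 (SD, n = 5), with overlap between the groups. The sum of the 3 was 96.72 to 110.5 CPM per kilobase in Ctrl and 107.3 to 144.7 in β-Mfn1/2DKO. With the longest transcript as the length, the share of Vdac3 was 15.6 ± 1.67% in Ctrl and 20.1 ± 0.927% in β-Mfn1/2DKO, again with no overlap (13.97 to 18.3% and 18.52 to 20.98%).

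**Figure D4:**
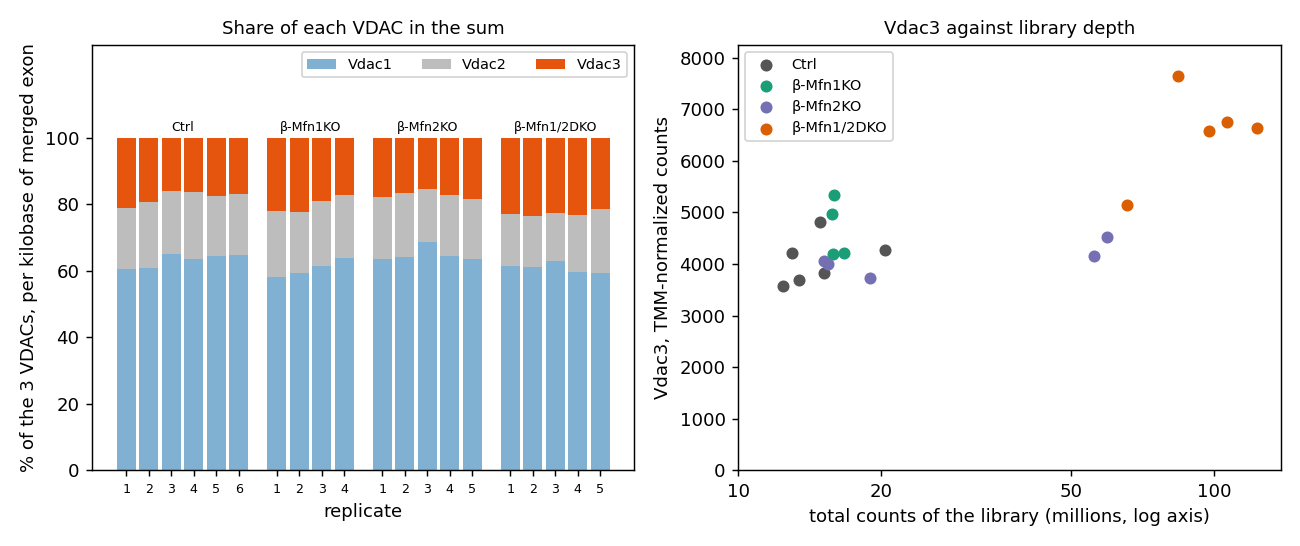
Left, the share of each VDAC in the sum of the 3 per kilobase of merged exon in each library; right, TMM-normalized counts of Vdac3 against the total counts of the library on a log axis. Vdac3 is 21.35 to 23.53% of the sum in β-Mfn1/2DKO and 16.05 to 20.99% in Ctrl, and the deep β-Mfn2KO libraries (4150 and 4519 counts) lie under all β-Mfn1/2DKO libraries.

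Levels were ordered as CPM per kilobase of merged exon. In Ctrl (n = 6, mean ± SD) Vdac1 was highest at 64.0 ± 4.40, followed by Vapb at 49.7 ± 1.47 and Bcap31 at 47.9 ± 2.82, which overlapped each other. Vapa was at 26.6 ± 2.48, Vdac2 at 19.1 ± 0.849, Vdac3 at 18.1 ± 2.05 and Rmdn3 at 16.9 ± 1.28. Vdac3 overlapped both of its neighbours. Pdzd8 (13.0 ± 0.738) and Pacs2 (6.95 ± 0.427) were lowest. In β-Mfn1/2DKO Vdac3 rose above Vdac2 and Vapa to 29.2 ± 4.01 (SD, n = 5), overlapping Vapa at 29.1 ± 2.12. In β-Mfn1KO Vdac3 also stood above Vdac2, at 20.85 ± 2.522 against 19.83 ± 0.5393 (SD, n = 4), with overlap. The order depends on the length used, and with the longest transcript Vdac2 stood above Vapa in Ctrl at 44.6 ± 1.99 and Vdac3 below Rmdn3 at 23.5 ± 2.66.

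**Figure D5:**
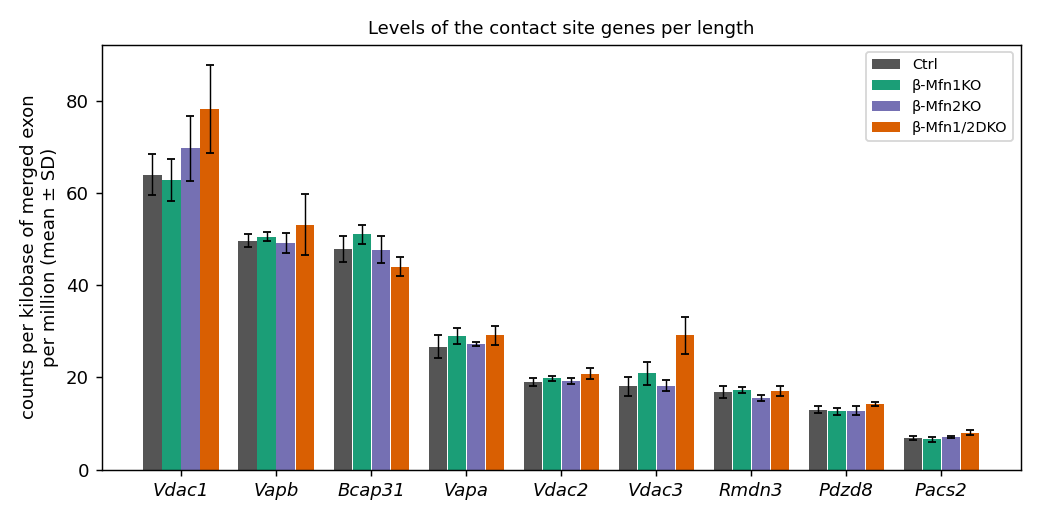
CPM per kilobase of merged exon for each contact site gene and group (bars are means, error bars SD). Vdac1 is highest in every group, and Vdac3 goes from 18.1 in Ctrl to 29.2 in β-Mfn1/2DKO.

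Sex was tested only as a difference in effect. The difference between males and females in the effect of β-Mfn1/2DKO or of β-Mfn2KO, tested in edgeR after the data had been seen, was called for 0 of 28632 genes. It had an unadjusted p of 0.106 for Vdac1 (−0.24), 0.105 for Vapb (−0.21) and 0.651 for Vdac3 (−0.08) in β-Mfn1/2DKO. In both comparisons 0 of the 9 had an unadjusted p under 0.05. Each of these knockouts held only 2 females and 3 males, so 0 called genes does not show equal effects in the sexes. DESeq2 was not run for this difference, and sex differences within a group or in the effect of β-Mfn1KO were not tested.

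The 3 genes called in β-Mfn1/2DKO against Ctrl were each matched to the genes with the most similar profile over the 20 libraries, by the root mean square difference in log2 CPM after centring, among 12274 genes whose mean reached 100 normalized counts. Nearest to Vdac3 were Ccdc47 (0.108), Rnaset2a (0.109) and Tcea1 (0.117), where the median gene was at 0.343. Nearest to Vdac1 were Adi1 (0.0721), Sms (0.0755) and F3 (0.0759), with a median of 0.223. Nearest to Pacs2 were Traf6 (0.0661), Ankrd27 (0.0664) and Fam168b (0.0684), with a median of 0.194.

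Promoters were read from RefSeq (GRCm38.p6) as the 250 bases before the start, and 7 of the 9 genes had an entry, in 8 windows. Vdac2 and Vdac3 had none. The windows were searched on both strands for 6 motifs, given with the share of all 32851 promoters that hold them: NRF1 (GCGCATGC, 2.26%), ETS (CCGGAAG, 6.91%), CARE (TGATGNAA, 3.45%), CRE (TGACGTCA, 1.55%), E-box (CACGTG, 6.02%) and the CCAAT box (CCAAT, 33.9%). The windows of Pacs2, Vdac1 and Pdzd8, which are among the genes called higher in β-Mfn1/2DKO against β-Mfn1KO, are shown because they hold a match, and capitals mark the matches on either strand.
Pacs2, chr12:113014258-113014507, plus strand: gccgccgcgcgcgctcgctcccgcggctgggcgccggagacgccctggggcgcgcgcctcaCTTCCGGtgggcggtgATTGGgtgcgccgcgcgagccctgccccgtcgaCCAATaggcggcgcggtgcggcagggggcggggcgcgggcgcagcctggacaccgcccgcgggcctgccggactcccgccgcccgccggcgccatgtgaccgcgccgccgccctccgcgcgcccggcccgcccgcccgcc
Vdac1, chr11:52360601-52360850, plus strand: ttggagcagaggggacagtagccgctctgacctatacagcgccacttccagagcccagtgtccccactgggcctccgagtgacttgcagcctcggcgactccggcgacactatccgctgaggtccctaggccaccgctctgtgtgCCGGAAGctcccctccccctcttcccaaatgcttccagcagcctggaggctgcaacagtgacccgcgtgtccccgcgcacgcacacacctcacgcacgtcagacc
Pdzd8, chr19:59345781-59346030, minus strand: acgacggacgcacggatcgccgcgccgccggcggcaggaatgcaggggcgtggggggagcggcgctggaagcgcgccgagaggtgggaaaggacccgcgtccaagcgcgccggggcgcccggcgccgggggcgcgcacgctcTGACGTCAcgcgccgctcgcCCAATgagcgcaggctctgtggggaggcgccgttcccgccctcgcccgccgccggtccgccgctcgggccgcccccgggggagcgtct
Pacs2 has the ETS letters at 189 bases before the start and CCAAT letters at 173 and 140 bases, and none of these overlap. In Vdac1 the ETS letters stand at 105 bases, and a second Vdac1 window holds none of the 6. Pdzd8 has the CRE letters at 108 bases and CCAAT at 88. Vapb holds NRF1 letters in 2 overlapping matches, at 95 and 93 bases, while Vapa, Rmdn3 and Bcap31 hold none of the 6. A match is a description of the letters and shows no binding.

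The rest of the contact site machinery was read from 6 fixed lists. In each, 0 genes were called in β-Mfn2KO or β-Mfn1KO against Ctrl by edgeR. Among 16 further tethers and organisers of the interface, 4 were called higher and 3 lower in β-Mfn1/2DKO against Ctrl, with a median log2 fold change of −0.04 beside 0.06 over all genes. Beside this and the counts that follow stand the 16.5% of all genes, and 39.5% of the 4226 abundant genes, called in that comparison. The genes named are up to 3 per list and direction with the smallest adjusted p, so a lack of overlap goes with how they were chosen. The share of all genes without overlap was not counted. The lipid transporter Osbpl5 rose by 0.59 (adjusted p = 0.000169), Atad3a by 0.40 (0.000759) and the SNARE Stx17 by 0.21 (0.0444), each with all 5 libraries above all of Ctrl. The ribosome receptor Rrbp1 fell by 0.53 (0.00025) and Miga1 fell by 0.20 (0.0135), each with all 5 libraries under all of Ctrl, and the VAP relative Mospd2 fell by 0.24 (0.00671) with overlap.

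Of 14 genes of calcium release and uptake, 2 were called higher and 1 lower (median 0.07). The IP3 receptor gene Itpr2 rose by 0.67 (adjusted p = 0.00259) and Hspa9, whose product links IP3 receptors to VDAC1, by 0.49 (0.00372). The ER calcium pump gene Atp2a3 fell by 0.46 (0.000413). All 3 were named for their adjusted p, and none overlapped between β-Mfn1/2DKO and Ctrl.

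Of 10 genes of lipid synthesis and transfer, 3 were called higher and 0 lower (median 0.14). Dgat2 rose by 0.97 (adjusted p = 0.000396) and Pisd, which makes phosphatidylethanolamine in mitochondria, by 0.25 (0.00351), both without overlap. Acsl4 rose by 0.34 (0.00781) with overlap.

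Of 16 partners of VAPA and VAPB on other membranes, 5 were called higher and 4 lower (median 0.08). Pitpnm2 rose by 0.49 (adjusted p = 4.117e-05) and Osbpl9 by 0.18 (0.0105) without overlap, and Osbpl6 by 0.28 (0.0135) with overlap. Pitpnm1 fell by 0.36 (0.000463) and the ceramide transporter gene Col4a3bp fell by 0.22 (0.00232) without overlap, and Acbd5 fell by 0.24 (0.00577) with overlap. The paralogs Pitpnm1 and Pitpnm2 thus moved in opposite directions.

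Of 15 other outer-membrane genes and VDAC partners, 6 were called higher and 1 lower (median 0.16). Bcl2l1 rose by 0.40 (adjusted p = 4.761e-05), Mtx2 by 0.22 (0.00814) and Samm50 by 0.16 (0.0179), all without overlap, and Cyb5b fell by 0.50 (0.000502) with overlap. Of 6 paralogs of the contact site genes, 1 was called higher and 1 lower. Mospd1 rose by 1.36 (0.0466) with a range of 51.96 to 398.1 normalized counts in β-Mfn1/2DKO and 29.07 to 84.61 in Ctrl, and Rmdn2 fell by 0.46 (0.0103) without overlap. With depth class as a covariate 1 tether and 1 calcium gene were called, both higher, and 0 in the other 4 lists, where 2.54% of all genes were called. The call of Mospd1 ended also with replicate block, sex or acinar score as a covariate, with drawn-down counts and without β-Mfn1/2DKO replicates 4 and 5, where 0 paralogs were called higher. The splits moved with the scaling and with the libraries used. Total-count scaling gave 6 higher and 1 lower for tethers, 7 and 1 for calcium genes, 6 and 0 for lipid genes, 7 and 1 for VAP partners, 10 and 1 for outer-membrane genes and 3 and 0 for paralogs. Under that scaling 22.2% of all genes were called, 85% of them higher, and the median of all genes rose by 0.14. Drawn-down counts gave 2 higher and 3 lower, 2 and 3, 3 and 0, 1 and 4, 2 and 1, and 0 and 1 in the same order, where 13.6% of all genes were called, 48.7% of them higher. Without β-Mfn1/2DKO replicates 4 and 5 the splits were 4 higher and 1 lower, 4 and 1, 3 and 0, 4 and 2, 4 and 1, and 0 and 1. In that fit 11.2% of all genes were called, 65.4% of them higher.

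The contact site genes were read here as RNA of whole islets, and the counts hold no measure of their proteins or of contacts between the membranes. Against Ctrl, depth and genotype of β-Mfn1/2DKO cannot be told apart.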

How the data were processed

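Gene counts of 20 islet libraries were used as the authors deposited them, as whole RSEM counts that are not normalized, less the genes with no count in any sample. The other table deposited by the authors is a signal, made by dividing the counts by normalization factors of DESeq2 that differ between samples and genes, and served only to recover the factors. The submitters' processing notes name FastQC 0.11.8, cutadapt 2.3, STAR 2.6.1b, RSEM 1.3.1 and DESeq2 1.26.0 on GRCm38. Whether counting was stranded is not given in the sources used here.

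The test of all 28632 genes was that of edgeR 4.0.16 (R 4.3.3; TMM, estimateDisp, glmQLFit and glmQLFTest, 1 coefficient per group, no covariate), tried first on simulated data. The SE of a log2 fold change in edgeR was derived as its absolute value divided by the square root of the F statistic. The 95% intervals were built from that SE with a t quantile. CPM were taken per effective library size. DESeq2 1.42.0 was an alternative, beside other scalings, filterByExpr, fits to the groups compared, covariates (sex, replicate number, acinar score, depth class), counts drawn down to 12400687 per library (the smallest total, seed 20), deep libraries alone and leaving out libraries. Normalized counts are counts divided by the effective library size, times its mean, and log2 CPM had a pseudocount of 0.5. Gene positions and lengths are from GENCODE on GRCm38, and promoters from RefSeq on GRCm38.p6. Python 3.11.15 made the tables, using NumPy 2.4.6 and pandas 2.3.3.

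Members and lists were chosen with earlier results of these data known. Named genes are the 9 members, Mfn1 and Mfn2, up to 3 genes per list and direction with the smallest adjusted p among those called in β-Mfn1/2DKO against Ctrl, the 3 genes nearest in profile to each called member, and the most abundant gene of each marker list. Comtd1 and Vdac3-ps1 were named for their overlap or shared sequence.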

Additional observations from a re-analysis of the deposited data

Results flagged for a closer look

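The difference between the effects of losing Mfn1 without and with Mfn2 was called for Vdac3, at 0.47 on the log2 scale (adjusted p = 0.0394 in edgeR over 28632 genes). With Mfn2 present, the loss of Mfn1 went with a log2 fold change of 0.20, and without it with 0.68. Leaving out any 1 of 9 libraries (Ctrl replicates 1, 2 and 6, β-Mfn1KO replicates 3 and 4, β-Mfn2KO replicates 1, 2 and 4, β-Mfn1/2DKO replicate 2) ended that call at 0.42 to 0.48.

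The factor that the authors' table applies to Vapb stood apart in β-Mfn1/2DKO, where its lowest value was 1.12 times the median factor of the library and its highest value in Ctrl 0.979 times.

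Of 36 sets of libraries (9 genes in 4 groups), 2 held 1 library far from the others, where chance gives about 1 in 20. Vapa in Ctrl was at 4522 in replicate 2 and at 3522 to 3856 in the other 5 libraries. Pacs2 in Ctrl was at 2251 in replicate 6 and at 1926 to 2027 in the others. That library is also the highest of Ctrl for Rmdn3, Vdac1 and Vdac2, and its summed leukocyte (472.9 CPM, others 27.03 to 35.89) and stromal markers (226.9 CPM, others 13.13 to 33.61) stand apart.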

How the results depend on the processing

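The number of contact site genes called (adjusted p under 0.05) was recomputed under each alternative. In β-Mfn1/2DKO against Ctrl it was 3, and 1 with a fold change over 1.5 as well, 7 with total-count scaling (22.2% of all genes called, median of all genes raised by 0.14), 5 with filterByExpr (35.2% of the fewer genes tested) and 0 with depth class (2.54% of all genes). It was 3 to 5 on leaving out each library in turn, with 5 without Ctrl replicate 2, β-Mfn2KO replicate 3 or 5, or β-Mfn1/2DKO replicate 1. In β-Mfn1/2DKO against β-Mfn2KO it was 2, and 1 with the fold change as well (1099 of all 28632 genes). It was also 1 with DESeq2 size factors (13% of all genes called), acinar score (12.5%) or counts drawn down to the smallest total (10.4%). It was 4 with DESeq2 (26.5% of the genes it tested) or filterByExpr (28.6%), and 7 with total-count scaling (16.5% of all genes, median raised by 0.10). It was 1 to 4 on leaving out each library, with 1 without β-Mfn2KO replicate 1 or 2 or β-Mfn1/2DKO replicate 4, and 4 without β-Mfn2KO replicate 3 or β-Mfn1/2DKO replicate 5. In β-Mfn1/2DKO against β-Mfn1KO it was 5, and 0 with the fold change as well (1921 of all 28632 genes). It was 3 with the authors' factors (13.7% of all genes called) or drawn-down counts (14.8%). With depth class it was 1, where the share of all genes called also fell, to 4.31%. For the difference of the Mfn1 loss effects it was 1, and 3 with total-count scaling or filterByExpr, 0 with depth class or drawn-down counts, and 0 to 2 on leaving out each library, with 2 without β-Mfn1KO replicate 1 or β-Mfn2KO replicate 5. For the other 3 comparisons it was 0 in every alternative. With the authors' factors Vapb turned to −0.26 against Ctrl and to −0.24 against β-Mfn2KO in β-Mfn1/2DKO. Against β-Mfn1KO it turned from 0.07 to −0.21, called with neither. Apart from the fits with fewer genes, the cause of these changes was not tested.

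With the replicate number as a block the counts were 3, 2 and 5, as without it. What the number stands for is not stated; deviations from the group means correlated at 0.224 on average between libraries of the same number (27 pairs) and at −0.0491 between others (122 pairs). Number and sex partly coincide. Pairs of the same sex averaged 0.251 with the same number (23 pairs) and 0.136 with different numbers (50). Pairs of different sex averaged 0.071 with the same number (4) and −0.178 with different numbers (72). Pairs of the same number were thus higher on average in both, and the part of sex in the contrast was not tested.

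Vdac3 kept its direction in all 32 alternatives against Ctrl (0.55 to 0.83) and was called in 31, and against β-Mfn2KO it was called in 33 of 33 (0.60 to 0.79). Depth limits the comparisons with Ctrl, since no Ctrl library was as deep as any β-Mfn1/2DKO library.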
